A study of Mus musculus with 12 samples.

Results

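The genes of the constitutive proteasome, the protease complex that degrades ubiquitin-tagged proteins, were followed in mouse embryonic fibroblasts (MEFs) that lack Sirt6, or Sirt6 and RelA, before and during stimulation with TNF-α. Members were all genes with the symbol Psma, Psmb, Psmc or Psmd and a number, other than the immunoproteasome genes Psmb8, Psmb9 and Psmb10. Of the 33 such genes with a probe on the array, 31 had an intensity of 100 or more on some array and were tested, among 6093 genes tested in all. The members comprise 12 genes of the core particle (Psma and Psmb) and 19 counted with the regulatory cap (Psmc and Psmd). Among the 19 are Psmd5, Psmd9 and Psmd10, which encode assembly chaperones of the cap and not subunits of the finished complex. RNA was measured on Illumina mouse bead arrays in Sirt6-/-RelA-/-, Sirt6-/- and WT MEFs without TNF-α (0 h) and after 1.5, 6 and 24 h in 20 ng/mL of it, and each of the 12 conditions has 1 array. The cells came from embryos of 13.5 days, were grown in 15% serum, and carried no transgene or conditional allele that the labels name. No source says whether the 4 arrays of a genotype came from more than 1 embryo. A genotype and its culture therefore cannot be told apart. In the main fit, which adds genotype and time terms, the other times or genotypes stand in for replicates. Its p-values measure the spread of arrays around those terms, and a TNF-α response that differs between genotypes counts as spread.

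The proteasome core is a barrel of stacked rings. Its outer alpha rings gate the entrance and its inner beta rings carry the active sites, of which Psmb5 encodes the chymotrypsin-like, Psmb6 the caspase-like and Psmb7 the trypsin-like one. The cap consists of a base, in which a ring of AAA ATPases unfolds substrates and threads them into the core, and a lid, in which Psmd14 removes the ubiquitin chain. NF-κB depends on this complex, because the inhibitor IκB is degraded by the proteasome when TNF-α is sensed. RelA is an NF-κB subunit and Sirt6 is a chromatin-bound deacetylase of the sirtuin family.

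As a check of the labels, the probe for Sirt6 averaged 2.54 ± 6.72 in Sirt6-/-RelA-/-, -1.60 ± 6.03 in Sirt6-/- and 40.8 ± 2.88 in WT cells (SD over 4 arrays each), and Rela averaged 178 ± 6.22, 1291 ± 199 and 1111 ± 294 in the same order. All 8 fibroblast markers reached 100. In Sirt6-/- cells 4 of them were called lower and 1 higher than in WT cells (limma, median log2 difference -0.24). In Sirt6-/-RelA-/- cells 3 were called lower and 0 higher than in WT cells (median -0.27). None of the 3 epithelial markers with a probe reached 100, and Cdh1 was never above 16. The epithelial list summed to 41.4 to 67.0 in Sirt6-/-RelA-/-, 63.6 to 90.8 in Sirt6-/- and 41.5 to 63.4 in WT cells. Of the 4 macrophage and blood cell markers with a probe, Ptprc and Itgam were never above 16, but Adgre1 and Lyz2 reached 100. Their list summed to 246 to 362 in Sirt6-/-RelA-/-, 152 to 425 in Sirt6-/- and 765 to 1675 in WT cells, and both genes were called lower than in WT cells (limma), with median log2 differences of -1.70 in Sirt6-/-RelA-/- and -2.34 in Sirt6-/- cells. The summed intensity of 7 skeletal muscle markers was 579 to 677 in Sirt6-/-RelA-/-, 3091 to 3633 in Sirt6-/- and 152 to 220 in WT cells, and the Y-linked gene Eif2s3y averaged 835 in Sirt6-/-RelA-/-, -4.66 in Sirt6-/- and -3.06 in WT cells. The sex of the cultures therefore cannot be told apart from genotype where Sirt6-/-RelA-/- cells are compared with the others. In such bulk RNA, fewer cells of a type and less RNA per cell cannot be told apart. All 9 cell division genes tested were called lower in Sirt6-/- than in WT cells (limma, median log2 difference -1.17), where 17.1% of all tested genes were. The part of these marker genes in the results below was not tested. The WT 0 h array stood apart from the others. It held the lowest value of 26.3% of all genes tested, and the median deviation of all genes from their own 12-array mean was -0.10 there, on the log2 scale. Calls that change without it are given both ways, whereas differences between a single WT array and that at 0 h can only be given with it.

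Among the alpha ring genes, Psma2 ranged over the 12 arrays between 6760 and 9674, Psma3 between 5543 and 7748, Psma4 between 2930 and 4335, Psma5 between 5992 and 7777 and Psma7 between 1832 and 3148 (processed intensity, background subtracted and scaled by the authors). Psma1 (-12.4 to 1.02) and Psma6 (-7.75 to 6.40) stayed at background on every array and were not tested. Among the structural beta ring genes, Psmb1, with 2362 to 2725, had the smallest SD of all members (0.07 on the log2 scale), Psmb3 ranged from 3711 to 4730, Psmb4 from 5955 to 8662 and Psmb2 from 3283 to 5801. All core genes that were detected thus stayed within a 1.77-fold range over all 12 arrays.

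Of the catalytic genes, Psmb5 had intensities of 445, 402, 452 and 420 in Sirt6-/-RelA-/- cells at 0, 1.5, 6 and 24 h, 403, 443, 480 and 514 in Sirt6-/- cells and 375, 396, 461 and 420 in WT cells. Psmb6 had 3274, 2805, 3209 and 3747 in Sirt6-/-RelA-/- cells, 3133, 2832, 3389 and 3320 in Sirt6-/- cells and 2589, 3584, 2747 and 2883 in WT cells. Psmb7 had 3459, 3441, 3996 and 4453 in Sirt6-/-RelA-/- cells, 3421, 3032, 3641 and 3449 in Sirt6-/- cells and 3460, 4157, 2860 and 3102 in WT cells. The 3 genotypes overlapped for each of these genes, and no genotype comparison passed the test (limma, log2 differences of -0.09 to 0.18, adjusted p between 0.232 and 0.972).

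In the cap, the base ATPase genes Psmc2 (5410 to 7894), Psmc3 (1321 to 1719), Psmc4 (2806 to 4306) and Psmc5 (1568 to 2012) were well detected on all 12 arrays. The lid genes Psmd7 (1711 to 2622), Psmd12 (1687 to 2162), Psmd13 (2784 to 3870) and Psmd14 (1083 to 1445) were so too, as was Psmd4 (3162 to 5527), which encodes a ubiquitin receptor of the base. The widest ranges belonged to Psmc6, a base ATPase, at 2.41-fold (150 to 362) and the lid gene Psmd8 at 2.21-fold (271 to 598). Other members of lower intensity were Psmd1 (134 to 242), a scaffold of the base, and the lid genes Psmd6 (294 to 556) and Psmd11 (501 to 871). Psmd5, Psmd9 and Psmd10, which encode chaperones that assemble the base and are not part of the finished complex, ranged between 334 and 564, 110 and 160, and 705 and 1156. Psmd2, a base scaffold, lay just inside the detection value with 88.5 to 130, and Psmd9 was the next above it. Over the 12 arrays the median SD of a member was 0.166 on the log2 scale, against 0.238 for all tested genes, and 26 of the 31 members varied less than the median gene. Of the 31, 21 had a mean intensity of at least 1000, so bright genes are given as a second background where stated. The SD was not set against that of bright genes, and the part of intensity in it was not tested.

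**Figure D1:**
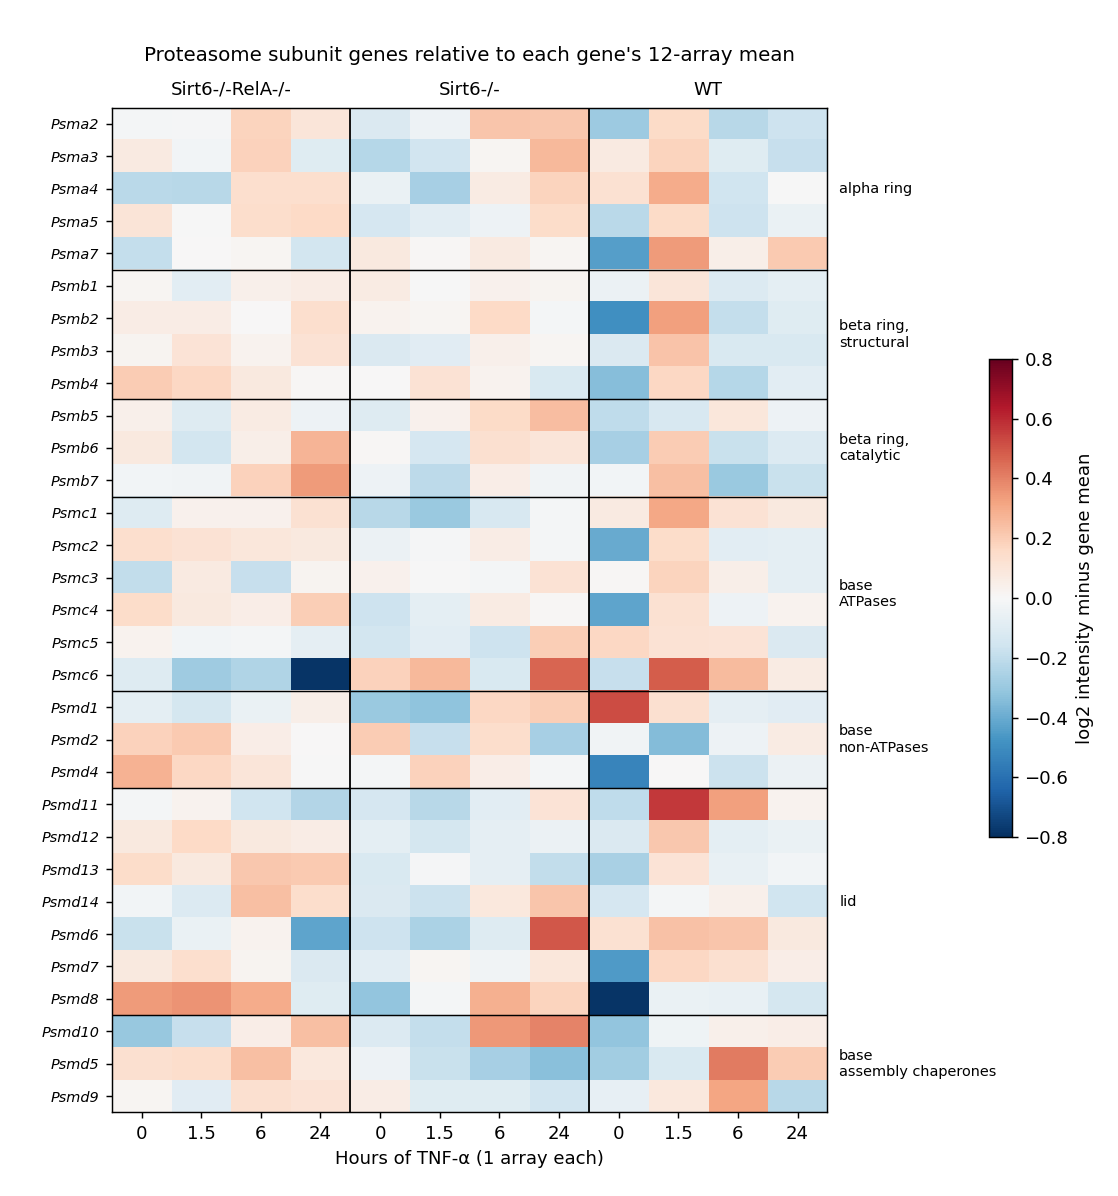
Each of the 31 tested genes (rows, by role) on each array (columns, by genotype and hours of TNF-α), as log2 intensity minus the gene's mean over the 12 arrays, with blue lower and red higher. Most cells are pale, and the deepest blue stands at Psmc6 on the Sirt6-/-RelA-/- 24 h array and at Psmd8 on the WT 0 h array.

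Loss of Sirt6 was compared with WT over the 4 times. Of the 31 members, 1 was called lower and 0 higher at an adjusted p under 0.05 (limma), a share of 3.23%, where 42.2% of all tested genes were called, 17.1% lower and 25.1% higher. Among genes with a mean intensity of at least 1000, 40.5% were called. At an unadjusted p under 0.05 the same member alone passed, where 49.7% of all tested genes did. The members' differences ran from -0.31 to 0.29 on the log2 scale with a median of 0.02 (core 0.05, cap -0.01), and the median over all tested genes was 0.06. The members' median turned to -0.0426 with each array centred on its median and to -0.12 with quantile normalization. For 30 of the 31 members the 95% interval of the difference lay within a 1.5-fold change, as it did for 57.6% of all tested genes and 65% of the bright ones. Only Psmd8 reached beyond, to 0.62. The difference between these shares was not tested, since genes are not independent replicates. No core gene was called with or without the WT 0 h array. Without that array, Psmd5 (-0.39, adjusted p = 0.018) and Psmd11 (-0.39, adjusted p = 0.030) were called lower beside Psmc1, which made 3 of 31 (limma).

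The member called was Psmc1, which encodes an ATPase of the base. It had intensities of 1195, 1130, 1270 and 1375 in Sirt6-/- cells at 0, 1.5, 6 and 24 h, against 1464, 1723, 1508 and 1465 in WT cells. Every Sirt6-/- value lay below every WT value, which was so in the lower direction for 13.5% of all tested genes and for no other member. It was lower at 4 of 4 times, as were 20.4% of all tested genes. The log2 difference was -0.31 (SE 0.10, adjusted p = 0.026, limma), or 1.24-fold lower. In Sirt6-/-RelA-/- cells Psmc1 stood between the others at 1296, 1422, 1424 and 1513, and differed there from neither Sirt6-/- (0.19, adjusted p = 0.18) nor WT cells (-0.12, adjusted p = 0.42) by the limma test. The Psmc1 call was lost without the 1.5 h arrays (-0.21, adjusted p = 0.19), without the 6 h arrays (-0.33, adjusted p = 0.095), and when only the 8 arrays of these genotypes were fitted (adjusted p = 0.066).

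Loss of RelA on top of Sirt6 was compared with loss of Sirt6 alone. Again 1 of 31 members was called, in the lower direction, where 31.1% of all tested genes were called (15% lower, 16.1% higher) and 24.5% of the bright ones. The median difference was 0.06 on the log2 scale (core 0.03, cap 0.08), against 0.02 for all tested genes, and the intervals of 29 of the 31 members lay within a 1.5-fold change (66.1% of all tested genes and 77.6% of the bright ones). At an unadjusted p under 0.05, 3 members passed, against 42.1% of all tested genes. Psmc6, the member called, had 240, 212, 218 and 150 in Sirt6-/-RelA-/- cells against 294, 309, 237 and 356 in Sirt6-/- cells. The Sirt6-/-RelA-/- cells were lower at 4 of 4 times, as they were for 25% of all tested genes. The log2 difference was -0.55 (SE 0.17, adjusted p = 0.028, limma), although the 0 h value in Sirt6-/-RelA-/- cells exceeded the 6 h value in Sirt6-/- cells. The largest of these single differences, -1.25, was that at 24 h. Without the 24 h arrays the difference was -0.32 (adjusted p = 0.20), and without the 1.5 h arrays -0.55 (adjusted p = 0.098, limma).

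Psmc2, Psmd5, Psmd12 and Psmd13 were higher in every Sirt6-/-RelA-/- array than in every Sirt6-/- array, 4 of 31 members, where 18.2% of all tested genes were. Psmd5, the base assembly chaperone, had 461, 466, 500 and 448 in Sirt6-/-RelA-/- cells and 410, 374, 351 and 334 in Sirt6-/- cells, a difference of 0.35 (SE 0.14, adjusted p = 0.062). The lid gene Psmd13 had 3696, 3516, 3870 and 3864 in Sirt6-/-RelA-/- cells and 3059, 3309, 3172 and 2906 in Sirt6-/- cells, a difference of 0.26 (SE 0.10, adjusted p = 0.062). Neither passed the limma test over all 12 arrays. Both passed it without the WT 0 h array, at an adjusted p of 0.020 for Psmd5 and 0.028 for Psmd13, where the differences themselves were the same and only the estimate of the spread changed. Each passed in 5 of 16 alternatives, among them an offset of 50 (adjusted p = 0.049 for Psmd5 and 0.039 for Psmd13), the trended prior (0.047 and 0.043) and a fit of only the 8 arrays of these genotypes (0.011 and 0.034). A second detected probe of Psmd12 overlapped between the genotypes, at 498 to 508 in Sirt6-/-RelA-/- and 374 to 612 in Sirt6-/- cells, so its separation rests on 1 of 2 probes.

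Sirt6-/-RelA-/- cells were also set against WT cells. In that comparison 1 member was called, in the higher direction, where 20.6% of all tested genes were called (15.3% higher, 5.32% lower). The median of the members was 0.09 on the log2 scale and that of all tested genes 0.07, and the members' median turned to -0.0457 with quantile normalization. In the fit on all 12 arrays 27 of 31 intervals lay within a 1.5-fold change (73.1% of all tested genes and 75.4% of the bright ones). Among bright genes 24.3% were called. At an unadjusted p under 0.05, 5 members passed, against 34.6% of all tested genes. The lid gene Psmd8 had 592, 598, 573 and 437 in Sirt6-/-RelA-/- cells against 271, 451, 448 and 424 in WT cells. The 24 h value in Sirt6-/-RelA-/- cells lay among the WT values, and the lowest value was that of the WT 0 h array. The difference was 0.48 (SE 0.15, adjusted p = 0.040, limma), or 1.40-fold, and 0.35 (adjusted p = 0.10) without the WT 0 h array. The call held in 7 of 16 alternatives. Psmd8 in Sirt6-/- cells, at 376, 463, 570 and 529, was 0.29 above WT cells (adjusted p = 0.14). Psmc6 had a difference of -0.51 from WT cells (SE 0.17, adjusted p = 0.055) and passed the test in 8 of 16 alternatives. It passed without the WT 0 h array (-0.66, adjusted p = 0.014), as did Psmd11 (-0.41, adjusted p = 0.045). With quantile normalization (-0.55, adjusted p = 0.040) and with each array centred on its median (-0.56, adjusted p = 0.031), Psmc6, in the lower direction, was the 1 member called in place of Psmd8. Only the lid gene Psmd6 had every Sirt6-/-RelA-/- value (349, 380, 403 and 294) below every WT value (430, 464, 460 and 416), which was so for 5.3% of all tested genes, with a difference of -0.32 that did not pass the test (adjusted p = 0.17). Its second detected probe overlapped, at 213, 200, 134 and 118 in Sirt6-/-RelA-/- and 153, 257, 176 and 173 in WT cells. No core gene was called in any of the genotype comparisons, and none in any of their alternatives.

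**Figure D2:**
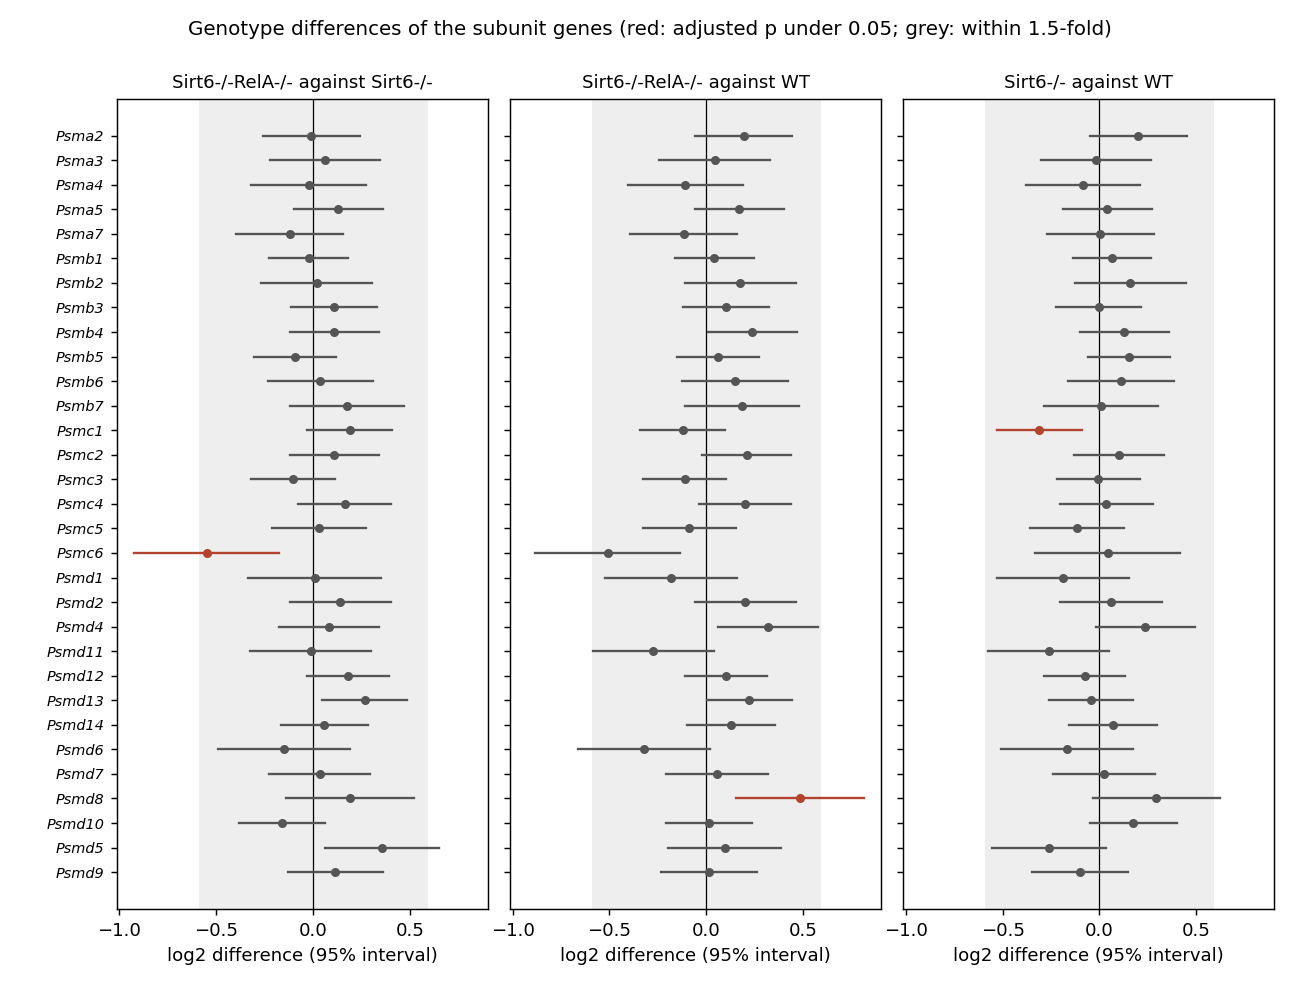
Log2 differences (points) of the 31 genes with their 95% intervals (lines) from the limma fit for Sirt6-/-RelA-/- against Sirt6-/-, Sirt6-/-RelA-/- against WT and Sirt6-/- against WT cells. The grey band marks a 1.5-fold change, within which 29, 27 and 30 of the 31 intervals lie, and the 3 genes in red are Psmc6, Psmd8 and Psmc1.

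TNF-α was asked about as the change from 0 h over the 3 genotypes. A response that differed between genotypes adds to the error of this test. None of the 31 members was called at 1.5 h, 6 h or 24 h by limma, where 0.263%, 0.886% and 2.15% of all tested genes were, shares so low that a count of 0 among 31 says nothing particular about the members. Of all tested genes, 0.263% were called higher and 0% lower at 1.5 h, 0.656% and 0.23% at 6 h, and 0.87% and 1.28% at 24 h. At an unadjusted p under 0.05, 0, 2 and 1 members passed, against 8.73%, 9.9% and 11.8% of all tested genes. In the same fits, 5, 6 and 6 of 7 genes of the NF-κB response (Nfkbia, Tnfaip3, Cxcl1, Ccl2, Icam1, Relb and Nfkb2) were called higher, with median log2 differences of 1.87, 1.74 and 1.35. The members' median differences were 0.11, 0.09 and 0.09, against 0.07, 0.0249 and 0.05 without the WT 0 h array, and the median at 1.5 h was 0.0054 with quantile normalization. The intervals of 26, 29 and 29 of the 31 lay within a 1.5-fold change, against 81.3%, 83.4% and 81.7% of all tested genes and 88.3%, 92.6% and 91.1% of the bright ones. The difference between Sirt6-/-RelA-/- cells and the other genotypes in the 24 h change was fitted as well, and 0 of 31 members were called, where 0.164% of all tested genes were (limma with 3 residual degrees of freedom). The members with an unadjusted p under 0.05 were 2, Psmd8 (-1.01, adjusted p = 0.55) and Psmc6 (-0.94, adjusted p = 0.71), against 6.68% of all tested genes. None of the members' intervals for that difference lay within a 1.5-fold change, and none of all tested genes did, so this comparison could not bound it.

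Psmd10, an X-linked gene whose product (gankyrin) is an ankyrin-repeat chaperone of the base, came nearest to a response. It had 713, 773, 911 and 1038 in Sirt6-/-RelA-/- cells at 0, 1.5, 6 and 24 h, 815, 772, 1120 and 1156 in Sirt6-/- cells, and 705, 860, 904 and 913 in WT cells. In each genotype the values at 6 and 24 h lay above those at 0 and 1.5 h. The log2 difference from 0 h was 0.11 at 1.5 h, 0.39 at 6 h (SE 0.12, adjusted p = 0.20) and 0.47 at 24 h (SE 0.12, adjusted p = 0.067), and the 24 h difference was positive in 3 of 3 genotypes (0.37 to 0.54), as it was for 12.8% of all tested genes. Neither passed the limma test. Its 2 other probes gave 0.36 and 0.42 at 6 h and 0.42 and 0.35 at 24 h. The 24 h difference passed with an offset of 50 added to the intensities (0.45, adjusted p = 0.044) and with a variance prior that follows the intensity (adjusted p = 0.044, limma).

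**Figure D3:**
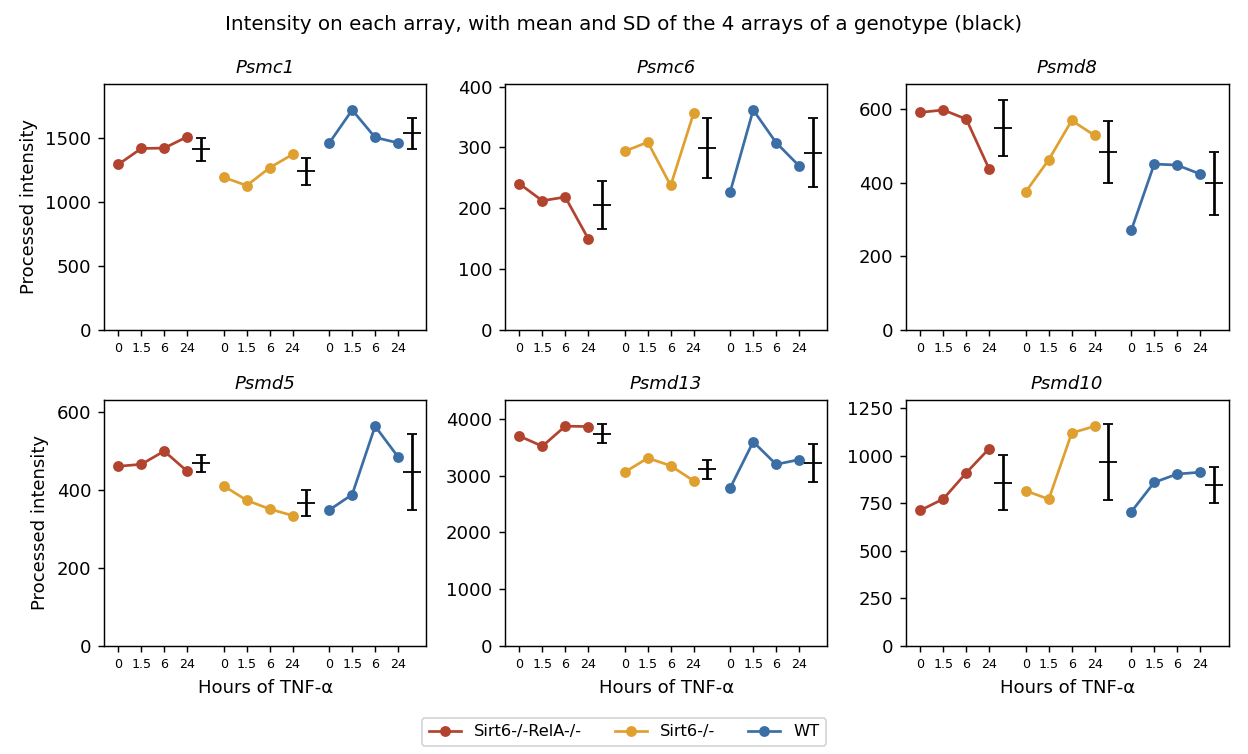
Processed intensity of 6 cap members on each array, by genotype (colour) and hours of TNF-α, on axes that start at 0, with the mean and SD of the 4 arrays of each genotype in black. Psmc1 is lowest in Sirt6-/- and Psmc6 in Sirt6-/-RelA-/- cells, Psmd8 is at 271 on the WT 0 h array, and Psmd10 is higher at 6 and 24 h than at 0 and 1.5 h in all 3 genotypes.

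The single arrays showed where the members moved together. At 1.5 h of TNF-α the median member differed from 0 h by -0.01 in Sirt6-/-RelA-/-, by -0.02 in Sirt6-/- and by 0.33 in WT cells, where 28 of 31 members were above their 0 h value and all 12 core genes were. In WT cells 62.4% of all tested genes and 78.3% of those with a mean intensity of at least 1000 were above 0 h at that time. In all 3 genotypes at once, 4 of the 31 members were higher at 1.5 h, as were 20.3% of all tested genes. The bright genes had medians of -0.01, 0.09 and 0.27 in the same order, and all tested genes -0.01, 0.04 and 0.13. Of the 31 members, 14 had their lowest value on the WT 0 h array (26.3% of all tested genes did) and 12 their highest on the WT 1.5 h array (10.3% of all tested genes). The shares among bright genes were not counted. With 1 array on each side, these differences were not tested.

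The shift on the WT 0 h array was shared with other genes in part. The median deviation from the 12-array mean was -0.21 there for the members, -0.21 for bright genes, -0.37 for the subunits of the translation initiation factor eIF3, 0.11 for those of the chaperonin CCT and -0.0594 for those of the COP9 signalosome, a relative of the lid. Whether it belongs to the cells or to that array cannot be told apart with 1 array. For Sirt6-/- against WT cells the median member difference was 0.12 at 0 h, -0.20 at 1.5 h, 0.12 at 6 h and 0.14 at 24 h, where all tested genes had 0.08, -0.0028, 0.08 and 0.09 and bright genes 0.15, -0.0148, 0.25 and 0.15. At 1.5 h, when 27 of 31 members were lower in Sirt6-/- cells (50.3% of all tested genes and 51.5% of bright ones), the median member deviated by -0.0865 on the Sirt6-/- array and by 0.16 on the WT array.

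**Figure D4:**
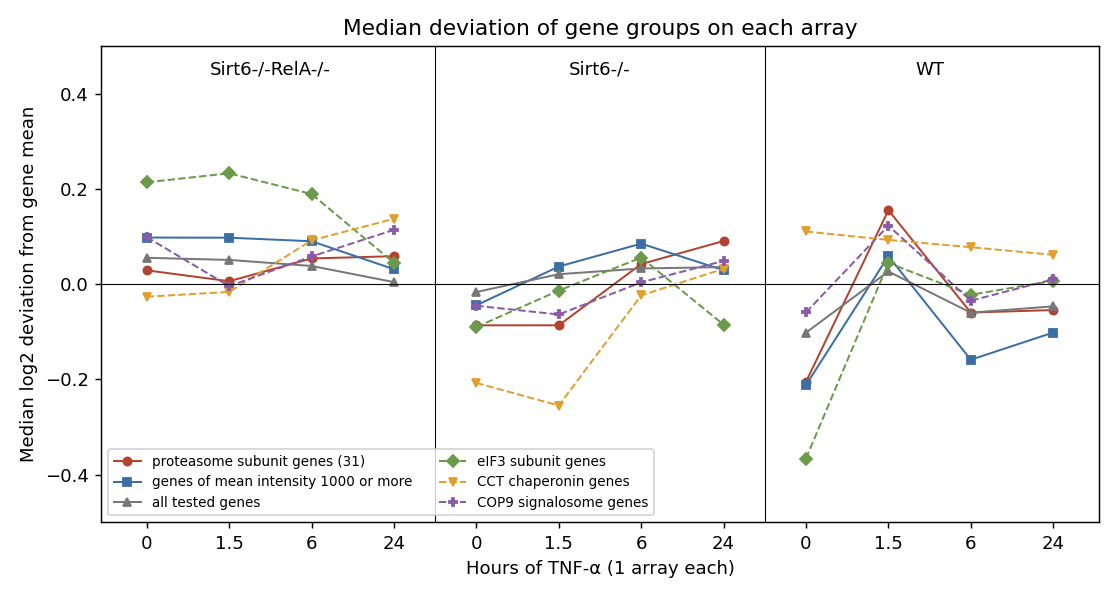
Median log2 deviation from each gene's 12-array mean on each array (by genotype and hours of TNF-α), for the 31 members, genes with a mean intensity of at least 1000, all tested genes, and eIF3, CCT and COP9 signalosome subunit genes. The members lie between -0.09 and 0.09 on the 8 knockout arrays, at -0.21 on the WT 0 h array and at 0.16 on the WT 1.5 h array.

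Several probes exist for 13 members, and in the genotype comparisons they disagreed in sign for Psma7, Psmb7, Psmd2, Psmd7, Psmd10, Psmd11 and Psmd12. Of the 3 probes of Psmb7, the brightest gave 0.01 for Sirt6-/- against WT and 0.18 for Sirt6-/-RelA-/- against Sirt6-/- cells, and the third gave -0.10 and -0.24. For Psmd11 the brightest probe gave -0.27 for Sirt6-/-RelA-/- against WT cells and the second 0.11, so the lower values of Psmd11 given above rest on 1 of 2 detected probes. The probe of Psmd2 used here gave 0.06 for Sirt6-/- against WT cells and its dimmer probe, which never reached 100, gave -0.16. For Psmd7 the detected probes gave 0.0224 and -0.12 in that comparison. For Sirt6-/-RelA-/- against Sirt6-/- cells those of Psma7 gave -0.12 and 0.0134. For Sirt6-/-RelA-/- against WT cells the detected probes of Psmd12 gave 0.10 and -0.20 and those of Psmd10 gave 0.0143, 0.13 and -0.17. Psmc1, Psmc6, Psmd8 and Psmd13 have 1 probe each in the annotation used.

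Promoter windows from 250 bases before to 50 bases after the annotated start were taken from RefSeq (GRCm38.p6), where 26 of the 31 members matched, with 27 windows. Psmb1, Psmb2, Psmb7, Psmc3 and Psmd7 did not match. The windows were searched on both strands for the core of the antioxidant response element, TGACNNNGC, at which NRF1 and NRF2 can act on proteasome genes, for the CCAAT box, CCAAT, and for a kappaB-like string, GGGA and TTCC with any pair of bases between them. A window may hold several of them, and a match is no evidence of binding. TGACNNNGC was found in 5 of 27 windows (18.5%, against 12.4% of 32851 windows of the same length), those of Psmb5, Psmb6, Psmc6, Psmd9 and Psmd12. CCAAT was found in 9 of 27 (33.3%, against 37.4%) and the kappaB-like string in 0 of 27 (against 1.47%). The latter share is so low that 0 of 27 says nothing particular about the members. The windows of the 3 genes called above and of Psmb5 follow, from 5′ to 3′ on the gene's strand, with any TGACNNNGC match, on either strand, in capitals. The windows are those of Psmb5 at chr14:54617946-54618245 (minus strand), Psmc1 at chr12:100109952-100110251 (plus strand), Psmc6 at chr14:45329574-45329873 (plus strand) and Psmd8 at chr7:29180624-29180923 (minus strand).
Psmb5: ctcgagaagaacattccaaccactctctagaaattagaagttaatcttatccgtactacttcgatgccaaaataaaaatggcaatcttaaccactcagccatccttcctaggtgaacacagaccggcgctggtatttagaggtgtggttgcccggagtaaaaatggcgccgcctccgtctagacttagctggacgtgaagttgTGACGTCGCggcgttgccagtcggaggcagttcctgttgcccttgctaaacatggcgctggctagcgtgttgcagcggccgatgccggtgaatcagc
Psmc1: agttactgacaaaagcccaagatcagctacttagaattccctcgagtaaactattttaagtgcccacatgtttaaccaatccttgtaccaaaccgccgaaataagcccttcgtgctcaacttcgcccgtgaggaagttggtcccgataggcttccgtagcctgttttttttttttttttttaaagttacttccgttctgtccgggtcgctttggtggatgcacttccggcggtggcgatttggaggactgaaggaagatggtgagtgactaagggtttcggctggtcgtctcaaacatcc
Psmc6: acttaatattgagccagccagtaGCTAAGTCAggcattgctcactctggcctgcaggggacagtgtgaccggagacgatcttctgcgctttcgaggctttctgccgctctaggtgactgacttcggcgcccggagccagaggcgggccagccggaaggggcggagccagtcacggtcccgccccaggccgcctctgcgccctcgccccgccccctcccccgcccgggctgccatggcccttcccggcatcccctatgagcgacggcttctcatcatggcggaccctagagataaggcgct
Psmd8: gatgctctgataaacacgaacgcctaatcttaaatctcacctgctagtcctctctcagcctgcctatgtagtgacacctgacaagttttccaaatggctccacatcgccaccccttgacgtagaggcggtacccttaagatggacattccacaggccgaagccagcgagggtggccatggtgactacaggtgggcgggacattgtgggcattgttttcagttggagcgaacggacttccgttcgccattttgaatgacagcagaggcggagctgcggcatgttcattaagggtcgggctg
The match begins 47 bases before the start in Psmb5 and 227 bases before it in Psmc6, and the windows of Psmc1 and Psmd8 hold none. Psmc6 was called and Psmb5 was not, and the part of the match in these values was not tested.

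Genes that build, regulate or assist the complex were counted next. Of 4 core assembly chaperones tested, which pair alpha subunits into rings or carry the beta ring to them, 3 were lower in Sirt6-/- than in WT cells, against 17.1% of all tested genes. Psmg1 had 273, 270, 217 and 278 in Sirt6-/- cells against 378, 451, 458 and 406 in WT cells (-0.71, SE 0.12, adjusted p = 4.2e-04, limma). Psmg2 had 452, 397, 457 and 536 in Sirt6-/- cells against 654, 773, 714 and 729 in WT cells (-0.64, SE 0.11, adjusted p = 3.4e-04). In both genes every Sirt6-/- value lay below every WT value. Psmg3 had 197, 164, 186 and 180 in Sirt6-/- cells against 185, 274, 290 and 291 in WT cells (-0.50, SE 0.14, adjusted p = 0.011), with only the WT 0 h value inside the Sirt6-/- range. The Psmg3 call was lost in 4 of 16 alternatives, at an adjusted p of up to 0.091 (limma). Among them were the fits without the 1.5 h, the 6 h or the 24 h arrays (adjusted p = 0.082, 0.071 and 0.059). Pomp, a maturation factor of the core, did not pass the test (0.13, adjusted p = 0.37). In Sirt6-/-RelA-/- cells Psmg1 (364, 297, 294 and 355) and Psmg2 (587, 545, 627 and 739) were higher than in Sirt6-/- cells, by 0.34 (adjusted p = 0.047) and 0.44 (adjusted p = 0.0072), and Psmg3 had a difference of 0.38 that did not pass the test (adjusted p = 0.051). This Psmg3 difference passed in 9 of 16 alternatives, with adjusted p from 0.0050 to 0.24 over them (limma). The Psmg1 call against Sirt6-/- cells was lost in 7 of 16 alternatives and that of Psmg2 in 1 of 16. Psmg1 had a log2 difference of -0.37 from WT cells (adjusted p = 0.043, limma), a call also lost in 7 of 16 alternatives. The cell division genes moved the same way, with 9 of 9 called lower in Sirt6-/- than in WT cells (17.1% of all tested genes). In Sirt6-/-RelA-/- cells 7 of 9 were called higher than in Sirt6-/- cells (16.1% of all tested genes). There, 4 of 9 were still called lower than in WT cells (5.32% of all tested genes). The part of growth rate in these chaperone values was not tested.

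Among 7 detected subunits with other symbols and proteasome-associated factors, 2 were called lower in Sirt6-/- than in WT cells, where 17.1% of all tested genes were. Uchl5, a cap-bound deubiquitinase, fell by 0.54 (SE 0.12, adjusted p = 0.0024) and Rad23b, a shuttle for ubiquitinated proteins, fell by 0.62 (SE 0.17, adjusted p = 0.0097, limma). On the WT 0 h array Rad23b was at 870, against 450 to 540 on the other WT arrays, and without that array the difference was -0.39 (adjusted p = 0.014). The Rad23b call was lost in 2 of 16 alternatives, at an adjusted p of up to 0.12 (limma). Nfe2l1, which encodes NRF1, the transcription factor that induces proteasome genes when proteasome activity is short, was higher. It had 2196, 2330, 2593 and 2385 in Sirt6-/- cells against 1673, 1748, 1504 and 1571 in WT cells (0.55, SE 0.10, adjusted p = 6.5e-04), and in Sirt6-/-RelA-/- cells, at 1873, 1839, 1973 and 1791, it had a log2 difference of -0.34 from Sirt6-/- cells (adjusted p = 0.018, lost in 4 of 16 alternatives). Of the other regulators tested, Nfe2l2, Keap1 and Vcp, none was called in Sirt6-/- cells. The 5 NRF2 targets tested split, with Hmox1 higher (0.39, adjusted p = 0.011) and Gclm lower (-0.71, adjusted p = 5.9e-05).

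Complexes built like the cap or of like size were taken beside it. The COP9 signalosome and eIF3 share the architecture of the lid, and CCT is a ring chaperonin. For Sirt6-/- against WT cells, 1 of 9 COP9 genes, 1 of 9 eIF3 genes and 2 of 8 CCT genes were called, where 42.2% of all tested genes were. The COP9 gene was Cops8, at 163, 147, 148 and 159 in Sirt6-/- cells against 487, 559, 545 and 520 in WT cells (-1.77, SE 0.10, adjusted p = 2.8e-08), and at 495, 463, 492 and 551 in Sirt6-/-RelA-/- cells (1.70 above Sirt6-/- cells, adjusted p = 7e-08, limma). The other COP9 genes tested had differences between -0.21 and 0.31 in Sirt6-/- cells, none of which passed. The eIF3 gene was Eif3f, higher by 0.31, and the CCT genes were Cct3 and Cct6a, which fell by 0.29 and 0.30.

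**Figure D5:**
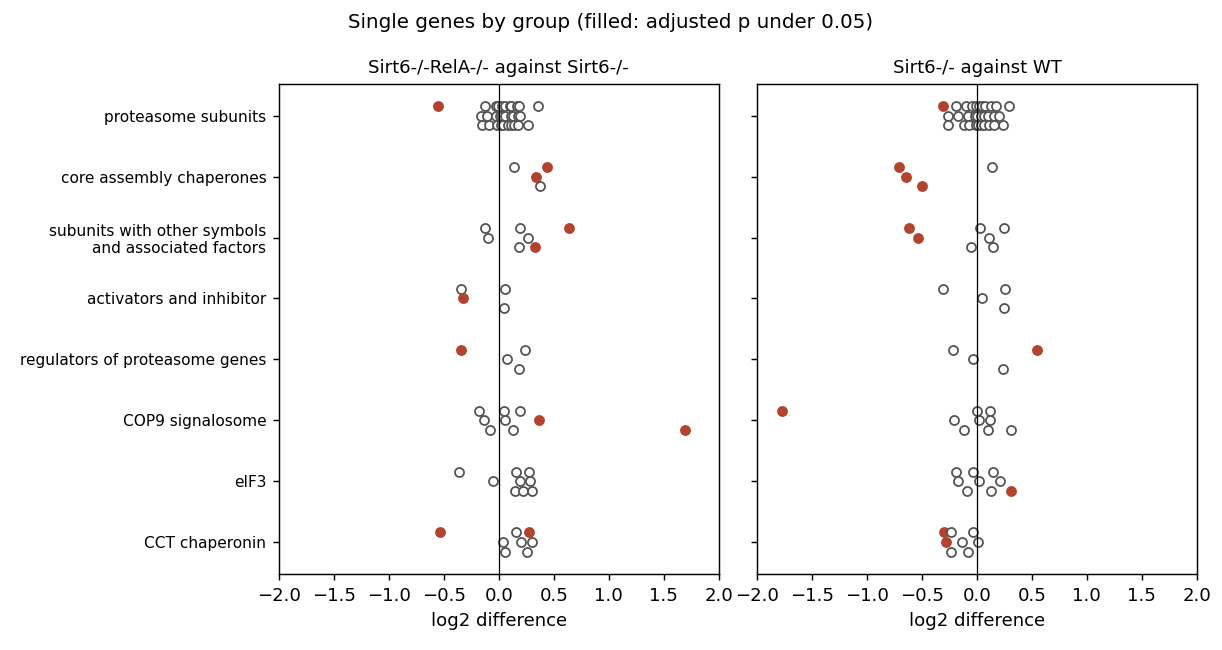
Log2 difference of each tested gene (points, filled where the adjusted p from limma was under 0.05) for Sirt6-/-RelA-/- against Sirt6-/- cells and Sirt6-/- against WT cells, by group. The 31 members (top row) lie between -0.55 and 0.35 with 1 filled point in each panel, the core assembly chaperones have 2 and 3 filled points, and the outlying point of the COP9 signalosome is Cops8.

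The inducible subunits were kept apart. Psmb8 and Psmb9 stayed under 100 on every array, at means of 15.0 and 14.9 in Sirt6-/-RelA-/-, 6.83 and 18.4 in Sirt6-/- and 10.3 and 22.0 in WT cells. Psmb10 had 357, 349, 322 and 320 in Sirt6-/-RelA-/- cells at 0, 1.5, 6 and 24 h, 299, 429, 617 and 472 in Sirt6-/- cells and 241, 490, 562 and 495 in WT cells. Its values during TNF-α lay above 0 h in the Sirt6-/- and WT cells and below it in Sirt6-/-RelA-/- cells, but its changes over all genotypes did not pass the test (0.51, 0.71 and 0.51, adjusted p of 0.55, 0.19 and 0.34, limma). A response that differs between genotypes adds to the error of that test. The 24 h change of Psmb10 in Sirt6-/-RelA-/- cells minus the other genotypes was -1.01 (SE 0.30). It had an unadjusted p under 0.05 but was not called after adjustment (limma with separate time terms). Of the activators, Psme1 fell in Sirt6-/-RelA-/- cells against Sirt6-/- cells (-0.33, adjusted p = 0.035, lost in 5 of 16 alternatives) and Psme4 was higher than in WT cells (0.30, adjusted p = 0.044, lost in 11 of 16 alternatives), while Psme2 and Psme3 were not called in any genotype comparison on all 12 arrays. Psme2 had a difference of -0.35 from Sirt6-/- cells in Sirt6-/-RelA-/- cells (adjusted p = 0.061), which passed in 2 of 16 alternatives, without the WT 0 h array (adjusted p = 0.038) and with only the 8 arrays of these genotypes (adjusted p = 0.0075, limma).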

How the data were processed

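RNA from 12 MEF cultures (3 genotypes at 4 times, 1 array each) was hybridised to Illumina bead arrays. The deposited values are intensities that the authors obtained with GenomeStudio (version not given in the sources used here), background subtracted and scaled between arrays, and 17.7% of them were below 0. The 12 signal columns of the non-normalized table carry names that could not be tied to a sample and were not used. Tests ran on log2 intensities with a floor of 16. The brightest probe per gene was kept (23978 of 25697 probes had a gene), and genes that reached 100 on any array were tested. A model with terms for genotype and time (6 residual degrees of freedom) was fitted with limma 3.58.1 in R 4.3.3, with Benjamini-Hochberg adjustment over 6093 genes and a threshold of 0.05. The 24 h genotype difference used separate time terms. Upper quartiles were 147 to 152 and 7461 to 7547 probes reached 100 per array. With 1 array per condition the number of arrays limits the precision. By rule, the text names the catalytic subunits, called members with the same sign throughout, members under or nearest the detection value, those with probes of unlike sign, and up to 4 genes of each other list with the largest Sirt6-/- differences. Psmc6 and Psmd11 against WT, Psmd5, Psmd6, Psmd10, Psmd13 and further genes of the other lists were named after their values were seen. Members and lists were chosen with earlier results of these data known, and the background of genes with a mean intensity of at least 1000 was added after the data were seen. Normalization, centring, floor, offset, detection value, probe choice, prior, samples fitted and arrays left out were varied. The test was checked on simulated data with independent normal noise. Those data held no array shift and no TNF-α response that differed between genotypes, so the check does not cover these. Promoters were RefSeq windows (GRCm38.p6), searched with Python 3.11.15. Figures used matplotlib 3.10.9.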

Additional observations from a re-analysis of the deposited data

Results flagged for a closer look

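For 6 of the 31 members, the 3 TNF-α times moved one way from 0 h in one genotype and the opposite way in another, as they did for 33.3% of all tested genes. These differences between genotypes were not tested. The mean log2 difference from 0 h over the 3 times was -0.33 in Sirt6-/-RelA-/- and 0.45 in WT cells for Psmc6. For Psma7 it was 0.15 in Sirt6-/-RelA-/-, -0.0448 in Sirt6-/- and 0.64 in WT cells. Its second detected probe lay on both sides of its 0 h value in Sirt6-/-RelA-/- (2429, 2369, 2390 and 2442 at 0, 1.5, 6 and 24 h) and in Sirt6-/- cells (2334, 2268, 2499 and 2446), so the opposed signs rest on 1 probe. Psmb4 had -0.12 in Sirt6-/-RelA-/- and 0.29 in WT cells, and Psmd4 had -0.19 in Sirt6-/-RelA-/- and 0.46 in WT cells. For Psmc2 the value was -0.0370 in Sirt6-/-RelA-/-, 0.0555 in Sirt6-/- and 0.40 in WT cells. Psmd5 had -0.22 in Sirt6-/- and 0.44 in WT cells. Every WT value here is set against the WT 0 h array, on which the median member stood at -0.21 from its 12-array mean, and its part in these values was not tested.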

How the results depend on the processing

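The members called in Sirt6-/- against WT cells, 1 in the fit reported, were 0 when only the 8 arrays of both genotypes were fitted and with separate time terms, 3 without the WT 0 h array, and 0 to 2 with the arrays of one time left out. In Sirt6-/-RelA-/- against Sirt6-/- cells, 1 became 3 with an offset of 50, with the mean of all probes, with the trended and robust prior, with only 8 arrays and without the WT 0 h array, 0 with no filter, and 0 to 2 with a time left out. In Sirt6-/-RelA-/- against WT cells, 1 became 3 with an offset of 50, 2 with a detection value of 200, the trended prior, separate time terms and without the WT 0 h array, 0 with a detection value of 50, no filter and only 8 arrays, and 0 to 1 with a time left out. At 24 h of TNF-α, 0 became 1 (Psmd10) with an offset of 50 and with the trended prior, and the counts at 1.5 and 6 h stayed at 0. The cause of these changes was not tested. Psmc1 was called in 12, Psmc6 in 13 and Psmd8 in 7 of 16 alternatives of the comparison that called each, and no core gene in any. The members' median turned below 0 in Sirt6-/- against WT cells with quantile normalization (-0.12), centring (-0.0426), the mean of all probes (-0.0048) and without the 24 h arrays (-0.0099), and in Sirt6-/-RelA-/- against WT cells with quantile normalization (-0.0457). Psmg1, Psmg2, Uchl5, Nfe2l1 and Cops8 were called in Sirt6-/- against WT cells in 16 of 16. Ubqln1 changed sign with the mean of all probes, to -0.13 for Sirt6-/- against WT and -0.0465 for Sirt6-/-RelA-/- against WT cells (0.25 and 0.44 in the fit reported). The fit reported holds a term for time, so genotypes were compared within times, and with 1 array per condition there are no replicate numbers to add. The signal over background limits what can be seen for Psmd2 and Psmd9, which lie near the detection value.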
